A study of Mus musculus with 36 samples.

Results

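The genes described here are 32 mouse genes of cholesterol and lipid synthesis, chosen by symbol as genes of the pathway, with earlier results of these data known, out of 53379 genes in the count tables. They comprise 7 enzymes of the mevalonate and isoprenoid steps, 11 enzymes from squalene to cholesterol, 5 genes that control the SREBP transcription factors, 5 genes of sterol transfer, LXR and export, and 4 genes of fatty acid synthesis. Each of the 32 was found under its own Ensembl ID in both tables and passed the filter on low counts in every comparison. The set is wider than synthesis alone, since Abca1 and Abcg1 move sterol out of cells and Nr1h2 and Nr1h3 encode the LXR receptors.

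Cholesterol is built from acetyl-CoA through mevalonate, isoprenoid units, squalene and lanosterol. SREBP2, encoded by Srebf2, switches on most of these enzymes when membranes are short of sterol, and SREBP1, encoded by Srebf1, acts more on fatty acid synthesis. Both are carried by SCAP from the endoplasmic reticulum to the Golgi for cleavage, and INSIG1 and INSIG2 hold SCAP back when sterol is plentiful. LXR receptors respond to oxysterols and switch on the exporters Abca1 and Abcg1 as well as Srebf1.

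The samples were formalin-fixed, paraffin-embedded mouse tissue. Mice carrying a conditional ASPSCR1-TFE3 allele (genotype Sglt2-Cre; ASPSCR1-TFE3 LSL/+), in which a Cre under the Sglt2 promoter of proximal tubule cells switches on the fusion of translocation renal cell carcinoma, gave 11 kidney tumor libraries from 6 mice, 4 retro-orbital tumors (mice 2, 3, 5 and 6), 3 brain tumors (mice 1, 2 and 4) and 4 non-transformed kidneys (mice 1, 3, 4 and 5). Every adult group shares the Sglt2-Cre transgene, as the controls were 3 Sglt2-Cre mice without the fusion allele, with 6 kidney libraries. In a second model, 5 fetuses (Pax8-Cre; ASPSCR1-TFE3 LSL/+), with Cre under the Pax8 promoter of the developing kidney, gave kidneys labelled dysmorphic, and 3 control fetuses gave control kidneys. The sample labels give these controls as Pax8-Cre, but the series description allows either Pax8-Cre or the fusion allele alone, so their genotype is uncertain in every fetal comparison. No age is given in the labels. Libraries of the same animal and group were summed, so n counts animals.

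Library totals were 80205573 to 121415057 counts, and levels are given as CPM, counts scaled to library size with TMM factors over all groups. By Y-linked transcripts, fusion mice 1 and 5 were male, and female were the 4 remaining mice with tumors and all 3 adult controls. Tissues differed in the levels of cell type markers. Summed CPM of 7 proximal tubule markers was 11784 to 12163 in control kidneys and 11243 to 14705 in non-transformed kidneys. Among kidney tumors it was 7790.0 in mouse 4 and 9081 in mouse 5, 2498 in mouse 1 and 643 to 719 in the other 3 mice. The kidney lineage factors Pax2 and Pax8, added after the data were seen, summed to 65.8 to 99.3 CPM in kidney tumors, to 0.468 to 5.12 in retro-orbital tumors and to 0.351 to 1.32 in brain tumors. In fetal kidneys this sum was 107 and 56.2 CPM in control fetuses 1 and 2 but 3.77 in control fetus 3 and 0.338 to 25.4 in dysmorphic kidneys. The proximal tubule sum of control fetus 3, 1314 CPM, was between those of the other controls, 1111 and 1349.9, while dysmorphic kidneys had 44.5 to 833. The kidney markers of control fetus 3 thus differed in direction, and both sums were lower in dysmorphic kidneys than in control fetuses 1 and 2. In these bulk samples, fewer cells of a type and less RNA per cell cannot be told apart.

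Part of the sequence of some members is also present in other annotated genes, and how shared reads were counted is not given in the sources used here. Of all 75-base windows in the annotated transcripts, the share also found in another gene was 33.9% for Acat2 (Acat3 foremost), 26.8% for Acaca (Gm5182), 23.6% for Idi1 (Gm13502), 23.5% for Fdps (Gm43738), 21.8% for Fdft1 (Ctsb), 9.79% for Hmgcs1 (Gm48342), 8.83% for Tm7sf2 (Vps51) and 8.26% for Scap (5830462I19Rik). The share counts distinct windows over all annotated transcripts of a gene together. The uncertain part of the counts of these 8 members can therefore be larger or smaller than it. In each of the other 24 members the share was at most 3.15%.

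Promoter sequences show how the members differ in the elements that sterol-responsive and TFE3-related factors are known to use. RefSeq windows of the 250 bases before a start site (GRCm38.p6) were on hand for 25 of the 32 members, as 34 windows, and were searched on both strands for CACGTG, the E-box core, for CACNCCAC, a core of the sterol regulatory element, for CCAAT, the NF-Y box, and for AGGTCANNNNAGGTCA, the direct repeat of LXR. No matches of different motifs overlapped in these windows. The E-box was in 6 members (Hsd17b7, Sc5d, Dhcr7, Scap, Insig1 and Abca1) and in 6.86% of all 27025 genes with a window. The sterol element core was in 3 members (Acat2, Hmgcs1 and Insig1) and in 6.05% of genes. CCAAT was in 19 of the 25 members and in 37.5% of genes. The LXR repeat was in none of the members and in 0.0148% of genes. The windows shown are 4, for the member with the largest rise in kidney tumors (Insig1), its paralog that also rose (Insig2, the outermost of 3 windows), the member with the largest fall there (Hmgcs1) and the third member with the sterol element core (Acat2). Insig1 alone among the members held both the E-box, with its first base 101 bases before the start (position -101), and the sterol element core, at -9. Hmgcs1 held the core at -136 and Acat2 at -181 and -53. None of the Insig2 windows held either. Capitals mark the motif matches, and each sequence is written 5′ to 3′ along the gene's strand, which is plus for Insig1 (chr5:28071162-28071411) and Hmgcs1 (chr13:119690101-119690350) and minus for Insig2 (chr1:121332590-121332839) and Acat2 (chr17:12960726-12960975).
Insig1: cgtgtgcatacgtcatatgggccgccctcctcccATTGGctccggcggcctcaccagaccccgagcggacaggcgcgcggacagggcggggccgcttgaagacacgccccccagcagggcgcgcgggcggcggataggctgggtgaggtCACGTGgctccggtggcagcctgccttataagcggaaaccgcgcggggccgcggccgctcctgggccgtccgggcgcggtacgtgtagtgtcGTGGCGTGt
Insig2: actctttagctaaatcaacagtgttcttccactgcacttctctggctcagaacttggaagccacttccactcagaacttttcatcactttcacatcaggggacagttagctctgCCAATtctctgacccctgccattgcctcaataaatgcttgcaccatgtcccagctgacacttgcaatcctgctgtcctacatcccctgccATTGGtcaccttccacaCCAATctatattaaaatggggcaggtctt
Hmgcs1: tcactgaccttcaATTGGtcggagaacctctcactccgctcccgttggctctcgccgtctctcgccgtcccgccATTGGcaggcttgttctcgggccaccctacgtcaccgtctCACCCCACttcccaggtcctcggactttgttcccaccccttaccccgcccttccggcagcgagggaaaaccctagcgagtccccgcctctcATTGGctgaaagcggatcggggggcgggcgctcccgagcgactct
Acat2: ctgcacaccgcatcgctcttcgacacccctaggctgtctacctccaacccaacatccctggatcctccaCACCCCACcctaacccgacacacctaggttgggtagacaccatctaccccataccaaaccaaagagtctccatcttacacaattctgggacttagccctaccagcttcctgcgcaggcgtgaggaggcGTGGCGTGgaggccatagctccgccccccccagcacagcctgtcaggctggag

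Kidney tumors were compared with control kidneys to ask how the fusion-driven tumors differ from normal kidney. Members moved in both directions. Both INSIG genes and Acaca rose together with a few sterol enzymes, while Hmgcs1, at the entry of the pathway, fell. Of the 32 members, 12 passed an adjusted p of 0.05, 7 higher and 5 lower, against 19.0% of all 23578 genes tested (12.5% higher and 6.51% lower). The median log2 fold change was 0.30 over the members and 0.05 over all genes. Levels of tumors and controls did not overlap for 14 members, 8 higher and 6 lower, as for 29.8% of all genes (15.2% higher and 14.7% lower). All 6 proliferation markers also rose, with sums of 49.7 to 72.2 CPM in controls and 344 to 541 CPM in tumors, and their part was not tested.

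Insig1 had the largest change of any member. Its levels were 22.5, 45.1 and 35.5 CPM in the 3 controls and 326 to 816 CPM (median 564) in the 6 mice with kidney tumors. The lowest tumor lay above the highest control, and the log2 fold change was 4.07 ± 0.42 (SE, adjusted p = 0.00048). Insig2 was at 43.1, 36.0 and 34.4 CPM in controls and 80.9 to 222 CPM (median 187) in tumors, again with no overlap. Its log2 fold change was 2.22 ± 0.32 (SE, adjusted p = 0.00257). Both INSIG proteins retain SCAP and also take part in the breakdown of HMG-CoA reductase. Scap itself fell, with 82.5 to 91.2 CPM in controls and 55.4 to 72.9 CPM in tumors, a log2 fold change of -0.44 ± 0.12 (SE, adjusted p = 0.0297). Srebf1 and Srebf2 did not pass the test, with log2 fold changes of 0.33 ± 0.23 and -0.01 ± 0.23.

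Among mevalonate enzymes, Hmgcs1, which makes HMG-CoA, was at 7.80, 11.6 and 12.1 CPM in controls and 1.09 to 4.24 CPM (median 2.57) in tumors, without overlap, a log2 fold change of -1.99 ± 0.38 (SE, adjusted p = 0.00919). Fdps, which makes farnesyl diphosphate, was low in controls (0.598, 1.25 and 0.946 CPM) and was 1.76 to 8.68 CPM (median 4.55) in tumors. That was a rise of 2.42 ± 0.60 (SE, adjusted p = 0.0247) on the log2 scale. Both genes share sequence with other genes as given above. The other 5 enzymes of this branch did not pass the test, with log2 fold changes from -0.58 ± 0.32 for Acat2, a thiolase, to 0.998 ± 0.36 for Mvd, the decarboxylase.

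After squalene, Sqle, the squalene epoxidase that is a rate-limiting step, was 50.9, 91.9 and 83.5 CPM in controls and 132 to 303 CPM (median 189) in tumors, a log2 fold change of 1.48 ± 0.34 (SE, adjusted p = 0.0186). Every tumor was above every control. Sc5d, a sterol desaturase of the last steps, rose by 1.15 ± 0.26 (SE, adjusted p = 0.0177), with 35.4 to 47.3 CPM in controls and 72.5 to 146 CPM in tumors. Ebp, the sterol isomerase, and Hsd17b7, a sterol ketoreductase, fell by small amounts. Their log2 fold changes were -0.64 ± 0.19 (SE, adjusted p = 0.0476) and -0.71 ± 0.22 (SE, adjusted p = 0.0497). Cyp51, the lanosterol demethylase, did not pass the test at -1.21 ± 0.45 (adjusted p = 0.0887), with tumors spread over 36.2 to 189 CPM and controls over 142 to 246 CPM. Tumors of mice 4 and 5 had the highest Cyp51, at 108 and 189 CPM.

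Acaca, the acetyl-CoA carboxylase that commits carbon to fatty acids, was 109, 164 and 157 CPM in controls and 294 to 1317 CPM (median 936) in tumors. The log2 fold change was 2.64 ± 0.54 (SE, adjusted p = 0.0121), and all tumors exceeded all controls. Fasn, the fatty acid synthase, was 101, 118 and 91.8 CPM in controls and 100.2 to 529 CPM (median 227) in tumors and missed the threshold at 1.33 ± 0.50 (adjusted p = 0.0917). The desaturases Scd1 and Scd2 were at -0.10 ± 0.47 and 0.54 ± 0.40. Mouse 2 stood apart for Scd1 and Fasn but not for Scd2, which was 91.7 CPM there and 72.3 to 222 CPM over the 6 mice. Its kidney tumors had 1283 CPM of Scd1 and 529 CPM of Fasn, the highest of the 6 mice, and the highest sum of 8 adipocyte markers, 1682 CPM against 137 to 348 in the others. The part of fat tissue in these values was not tested.

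On the export side, Abca1 was 82.1, 87.0 and 80.2 CPM in controls and 92.3 to 342 CPM (median 229) in tumors, a rise of 1.40 ± 0.39 (SE, adjusted p = 0.0356). Nr1h3, the LXR alpha receptor, fell by 0.83 ± 0.23 (SE, adjusted p = 0.0336), with 19.7 to 21.1 CPM in controls and 8.05 to 17.5 CPM in tumors. Nr1h2, the LXR beta receptor, was nearly level at 0.05 ± 0.15. Macrophages also use Abca1, and 4 of 7 macrophage markers rose in this comparison, their sum being 159 to 186 CPM in controls and 240.4 to 728 CPM in tumors. Their part in the Abca1 value was not tested.

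**Figure D1:**
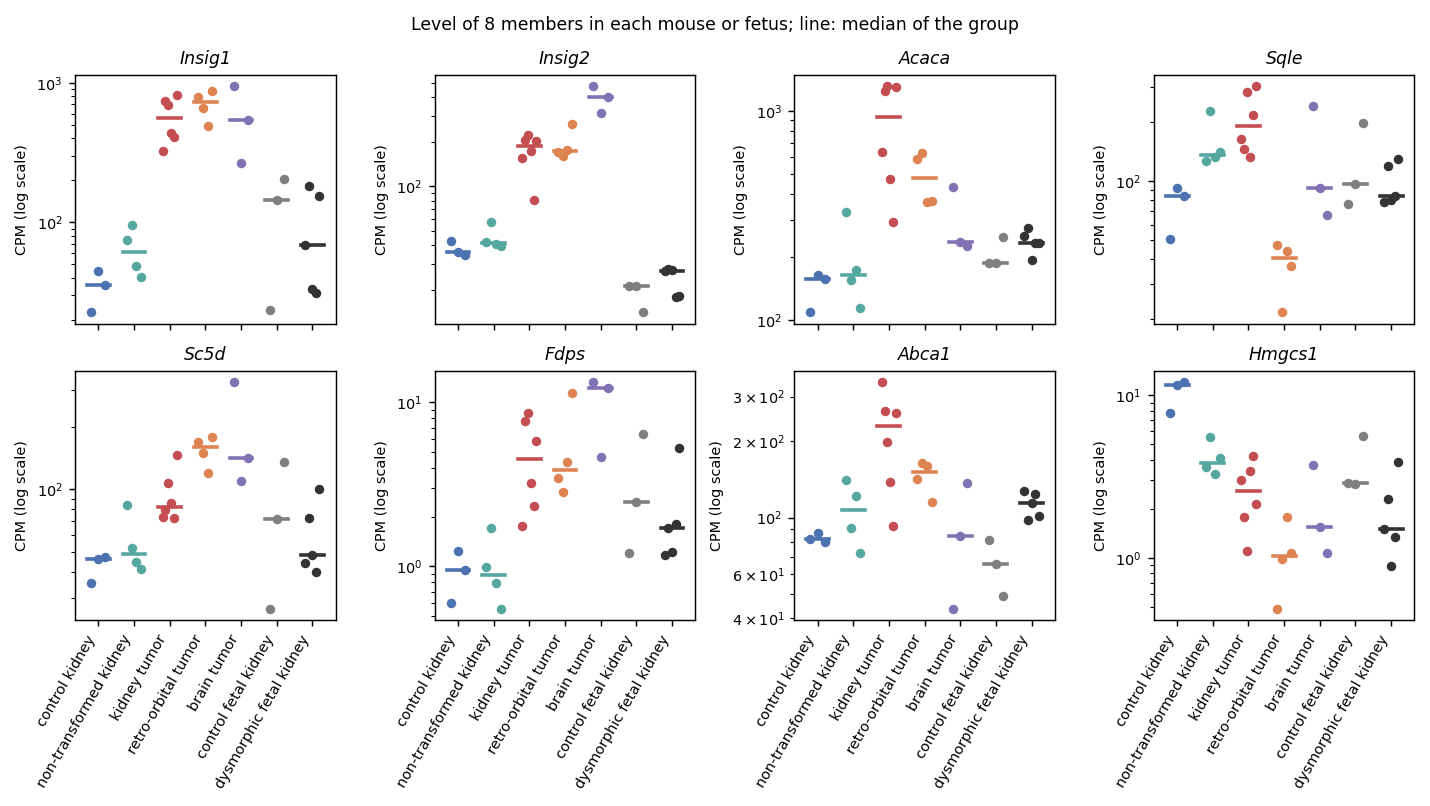
Level of 8 members in CPM (log axis) in each animal of the 7 groups, with a line at the group median. Insig1 in kidney tumors lies at 326 to 816 CPM, above the 22.5 to 45.1 CPM of control kidneys, while Hmgcs1 lies below its controls.

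Insig1 and Insig2 passed in all 17 alternative fits of this comparison, Hmgcs1 in 15 and Acaca, Sqle, Sc5d and Fdps in 14 each. The other calls held less often, Abca1 in 11, Scap in 10, Nr1h3 in 9, Ebp in 7 and Hsd17b7 in 6. The number of members called was 7 without fusion mouse 2 and 7 without fusion mouse 3, where 14.5% and 13.3% of all genes were called. It was 3 without control mouse 1 (8.55% of genes), 2 without control mouse 2 (4.78%) and 2 without control mouse 3 (4.96%), so members and all genes both lost calls. With sex as a covariate 15 passed, 11 higher and 4 lower, against 25.9% of all genes. Without both mice 4 and 5, whose tumors had the most proximal tubule signal, 19 members passed, 11 higher and 8 lower, with 34.1% of genes called in all against 19.0% with every mouse. The 12 members called with every mouse were among the 19.

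Tumors were also set against non-transformed kidney from mice with the fusion. Both INSIG genes, Fdps, Acaca and Abcg1 were higher in tumors, and Acat2, Stard4, Hsd17b7 and Nr1h3 were lower. These 9 members passed, 5 higher and 4 lower, with 17.1% of 21930 genes called (12.1% higher and 5.02% lower). The tumor libraries are the same as in the comparison with controls, so the results are not independent of it. Proliferation markers were again called higher, 6 of 6, with sums of 28.3 to 62.3 CPM in non-transformed kidneys, and their part was not tested. Insig1 was 74.0, 95.2, 48.5 and 40.6 CPM in the 4 non-transformed kidneys, and its log2 fold change was 3.10 ± 0.36 (SE, adjusted p = 0.000549). Insig2 was 41.9, 57.9, 41.0 and 39.4 CPM there and its change was 1.91 ± 0.27 (SE, adjusted p = 0.00162). Both genes were higher in the tumor of each of the 4 mice that gave both tissues.

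Fdps, at 0.985, 1.70, 0.797 and 0.551 CPM in non-transformed kidney, was higher in tumors by 2.25 ± 0.54 (SE, adjusted p = 0.0205). Acaca, at 328, 155, 173 and 114 CPM, was higher by 2.15 ± 0.49 (SE, adjusted p = 0.0169). Mouse 1 had both the highest non-transformed Acaca and the highest adipocyte marker sum of that group, 774 CPM. Abcg1, the second exporter, was higher by 1.08 ± 0.33 (SE, adjusted p = 0.0471). Macrophages use this exporter too, and 5 of 7 macrophage markers were called higher here, with sums of 126 to 240.4 CPM in non-transformed kidneys and 240.4 to 728 CPM in tumors, whose part was not tested. Lower in tumors were Acat2 at -1.39 ± 0.32 (SE, adjusted p = 0.016), Stard4, a carrier of cholesterol between membranes, at -1.03 ± 0.29 (SE, adjusted p = 0.0352), Hsd17b7 at -0.91 ± 0.21 (SE, adjusted p = 0.0169) and Nr1h3 at -0.80 ± 0.22 (SE, adjusted p = 0.0302). Acat2 was 121, 85.7, 61.7 and 103 CPM in non-transformed kidney and 22.2 to 57.9 CPM (median 29.3) in tumors, so that tumors lay below every non-transformed kidney. This held for 3 members, and 3 others lay wholly above, as did 6.15% and 11.4% of all genes. Only 4 mice gave both tissues. With mouse as a block on those, 2 members passed, Insig1 and Insig2, and 2 passed without the block on the same animals, with 4.12% and 8.04% of genes called. The count was 4 without fusion mouse 1 and 3 without fusion mouse 3, with 6.40% and 5.59% of genes called.

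Non-transformed kidneys of fusion mice were also compared with control kidneys. None of the 32 members passed edgeR's test, with 4 at an unadjusted p under 0.05 (11.7% of all genes were), and 0.00952% of 21019 genes were called. By DESeq2 3 members passed, Sqle and Acat2 higher and Hmgcs1 lower, as did 2.35% of all genes. Sqle levels were wholly apart, at 126, 226, 132 and 139 CPM against 50.9, 91.9 and 83.5 CPM in controls, with a log2 fold change of 1.08 ± 0.26 (SE, adjusted p = 0.206). So were those of Acat2, at 0.79 ± 0.22, and of Hmgcs1, which was 3.61, 5.56, 3.29 and 4.09 CPM against 7.80, 11.6 and 12.1 CPM, at -1.31 ± 0.24 (SE, adjusted p = 0.173). Groups without overlap made up 11.2% of all genes here, 3.91% higher and 7.25% lower. Of the members, 25 had a fold change above 0, as had 54.4% of all genes. Adipocyte markers had 8 of 8 above 0, none called, with a median of 2.67 and sums of 175 to 774 CPM against 101 to 177 CPM in controls, and their part was not tested.

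**Figure D2:**
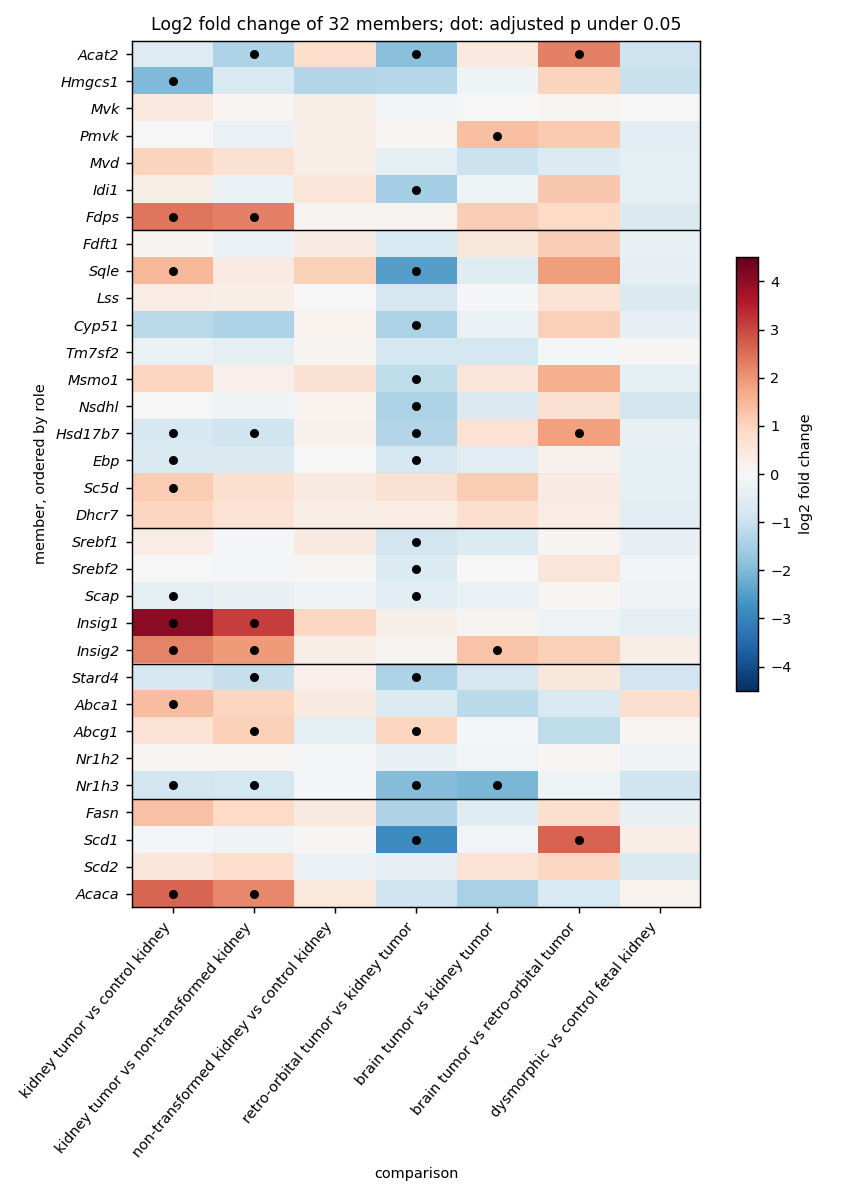
Log2 fold change (color) of the 32 members (rows, by role, separated by lines) in 7 comparisons (columns), with a dot where the adjusted p was under 0.05. The column for retro-orbital against kidney tumors has 15 dots, 14 of them on genes that were lower.

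Retro-orbital tumors were compared with kidney tumors to see how tumors at the 2 sites differ. Of the 18 mevalonate and sterol enzymes 8 were lower in the retro-orbital tumors, together with Scd1, Nr1h3, Stard4, Scap and both SREBP genes, while neither INSIG gene passed the test. Of the 32 members 15 passed, 14 lower and 1 higher, against 17.7% of 22136 genes (9.45% lower and 8.26% higher). The median log2 fold change was -0.76 over the members and -0.09 over all genes. Upper quartile scaling moved the median of all genes to 0.03 and the count to 12 members, 10 lower and 2 higher, with 17.2% of all genes called.

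Of the mevalonate enzymes, Acat2 was 8.45, 7.04, 14.6 and 9.81 CPM in the retro-orbital tumors of mice 2, 3, 5 and 6 and 22.2 to 57.9 CPM (median 29.3) in kidney tumors. Its log2 fold change was -1.89 ± 0.35 (SE, adjusted p = 0.00665). Idi1, the isopentenyl diphosphate isomerase, was 6.90, 4.84, 7.85 and 9.47 CPM against 11.5 to 28.9 CPM (median 21.0), a change of -1.53 ± 0.29 (SE, adjusted p = 0.00726). Both genes were lower in every retro-orbital tumor than in any kidney tumor, as were 10 members in all, against 7.76% of all genes, with no member wholly higher against 8.33%. Hmgcs1 was the lowest member per length, at 0.236 CPM per kilobase on average, and its change of -1.29 ± 0.46 did not pass (adjusted p = 0.0765).

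Of 11 sterol enzymes 6 fell, with Sqle in front. Sqle was 47.5, 21.5, 44.0 and 37.2 CPM in retro-orbital tumors, below the 132 to 303 CPM of kidney tumors and below the 50.9 to 91.9 CPM of control kidneys. Its log2 fold change against kidney tumors was -2.49 ± 0.33 (SE, adjusted p = 0.00175). Nsdhl, a sterol dehydrogenase, was 22.6, 26.7, 24.2 and 27.7 CPM against 49.4 to 84.4 CPM (median 68.3), at -1.44 ± 0.16 (SE, adjusted p = 0.00139). The others were Cyp51 at -1.44 ± 0.44 (adjusted p = 0.0466), Hsd17b7 at -1.30 ± 0.27 (0.00982), Msmo1, the sterol methyl oxidase, at -1.15 ± 0.34 (0.0431) and Ebp at -0.78 ± 0.20 (0.0224). Cyp51 kept its call in 3 of 15 alternatives and Msmo1 in 5. Another pair of enzymes, of the last steps, went the other way without passing edgeR's test. Sc5d was 169, 149, 119.7 and 178 CPM against 72.5 to 146 CPM (median 82.5), at 0.67 ± 0.21 (SE, adjusted p = 0.0546), and Dhcr7 was at 0.33 ± 0.31. DESeq2 called Sc5d as higher, at 0.73 (adjusted p = 0.0172). It also called Tm7sf2, Fasn, Lss and Hmgcs1, which edgeR did not, as lower. Sc5d and Dhcr7 were higher in the retro-orbital tumor in each of the 4 mice.

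In the control genes, Srebf1 was 16.7, 17.7, 17.9 and 14.95 CPM against 25.7 to 36.5 CPM (median 27.1) and fell by 0.82 ± 0.14 (SE, adjusted p = 0.00455) without overlap. Srebf2 at -0.63 ± 0.18 (SE, adjusted p = 0.0342) and Scap at -0.47 ± 0.13 (SE, adjusted p = 0.0315) were lower by less, and their calls were lost in most alternatives. Insig1, at 797, 662, 490.2 and 876 CPM, and Insig2, at 169, 161, 175 and 265 CPM, differed from kidney tumors by 0.27 ± 0.28 and 0.12 ± 0.27. Insig1 was the most abundant member per length at this site, with 228 CPM per kilobase against 55.5 for Insig2, the next.

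Scd1, which makes monounsaturated fatty acids, had the largest fall. It was 68.6, 45.6, 121 and 49.1 CPM in retro-orbital tumors and 251 to 1283 CPM (median 382) in kidney tumors, with a log2 fold change of -2.87 ± 0.53 (SE, adjusted p = 0.00624). All kidney tumors were above all retro-orbital tumors. Adipocyte markers summed to 137 to 1682 CPM in kidney tumors and 95.6 to 144 CPM in retro-orbital tumors, with none of the 7 tested passing, and their part was not tested. Fasn, Acaca and Scd2 did not pass, at -1.40 ± 0.43 (adjusted p = 0.0502), -0.88 ± 0.43 and -0.36 ± 0.31. Nr1h3 was 2.91, 2.67, 3.88 and 2.48 CPM against 8.05 to 17.5 CPM (median 11.3) and fell by 1.96 ± 0.26 (SE, adjusted p = 0.00175). Stard4 fell by 1.38 ± 0.30 (SE, adjusted p = 0.012). Abcg1 was the one member that rose, at 27.5, 39.5, 19.7 and 25.4 CPM against 7.57 to 23.0 CPM (median 13.2), by 0.97 ± 0.30 (SE, adjusted p = 0.0495).

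**Figure D3:**
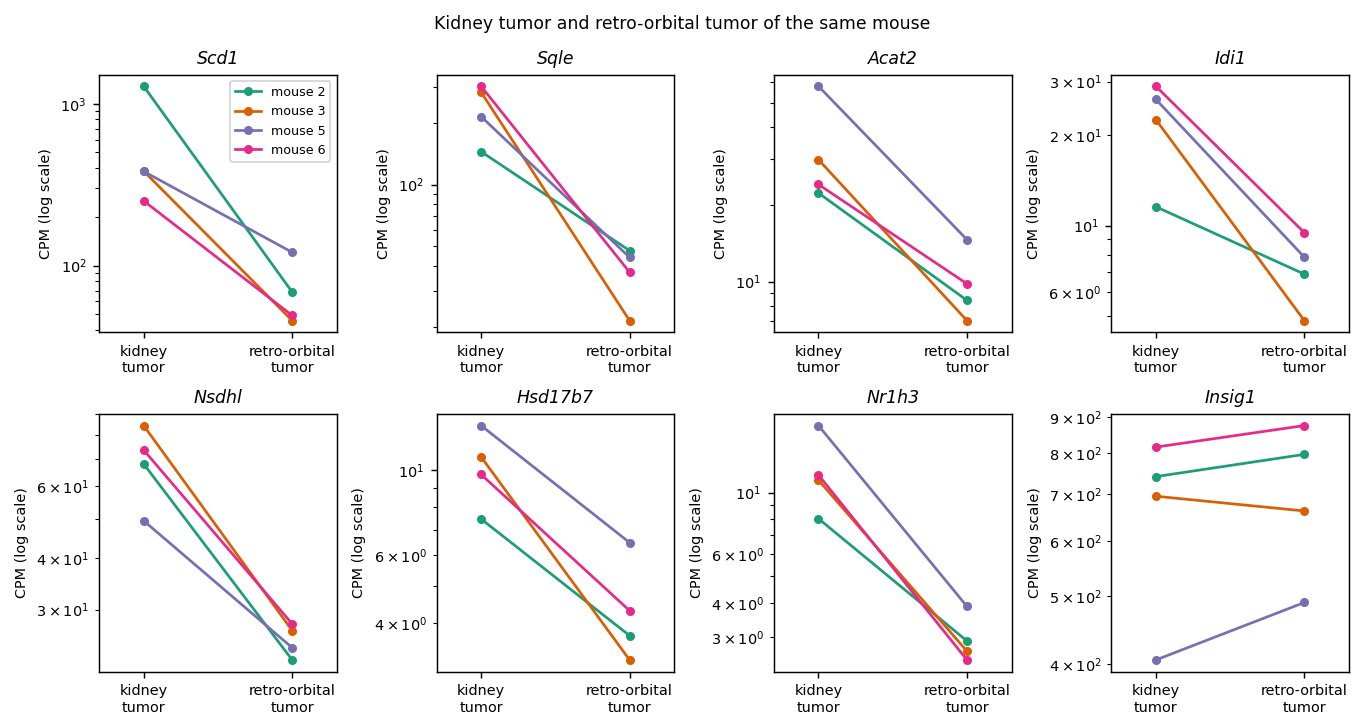
Level in CPM (log axis) of 8 members in the kidney tumor and the retro-orbital tumor of the same mouse, each line a mouse (mice 2, 3, 5 and 6). Scd1, Sqle, Acat2, Idi1, Nsdhl, Hsd17b7 and Nr1h3 are lower in the retro-orbital tumor in every mouse, while Insig1 is not.

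In the 4 mice with both tumors, 18 of 32 members were lower in the retro-orbital tumor of every mouse and 3 were higher in every mouse, against 23.3% and 20.1% of all genes. With mouse as a block 10 members passed, 9 of them lower, against 13.1% of genes called. The count was 8 without fusion mouse 3 and 8 without fusion mouse 6, with 7.24% and 7.92% of genes called. Acat2, Idi1, Sqle, Nsdhl, Srebf1, Scd1 and Nr1h3 kept their call in all 15 alternatives. Proximal tubule markers summed to 119.6 to 1099 CPM in retro-orbital tumors, with none of 7 passing, and 6 of 6 proliferation markers rose, with sums of 344 to 541 CPM in kidney tumors and 696 to 1179 CPM in retro-orbital tumors. The sum of 8 sebaceous and Harderian gland markers was 29.6 CPM in mouse 3, the highest, with a lowest of 2.11 and a median of 3.92 over the 4 mice. Without mice 4 and 5 the count was 11, all lower, against 15.7% of all genes. The part of these marker differences was not tested.

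Brain tumors, from 3 mice, were compared with kidney tumors in the same way. Pmvk and Insig2 were higher and Nr1h3 was lower, while no enzyme after squalene passed. These 3 members compare with 8.74% of 23391 genes called (4.54% higher and 4.20% lower). Pmvk, the phosphomevalonate kinase, was 37.6, 41.3 and 21.7 CPM in mice 1, 2 and 4 and 11.4 to 20.7 CPM (median 12.8) in kidney tumors, higher by 1.35 ± 0.27 (SE, adjusted p = 0.0226). Insig2 was 477, 315 and 400.2 CPM, its highest level at any site, and rose by 1.29 ± 0.28 (SE, adjusted p = 0.0302). Nr1h3 was 3.95, 1.26 and 2.44 CPM and fell by 2.07 ± 0.42 (SE, adjusted p = 0.0239). All 3 genes were without overlap, as were Srebf1 and Nsdhl, which were lower, against 5.36% of all genes wholly higher and 9.79% wholly lower. Insig1, at 952, 266 and 546 CPM, differed by 0.14 ± 0.41 and was not past the threshold.

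No member passed with mouse as a block, on the same animals without it, or without fusion mouse 2 (1.26% of all genes called), and 1 passed without fusion mouse 4 (6.36%), while DESeq2 called 7 (21.8% of all genes) and a joint fit of all groups 6 (26.0%). The brain tumors differed in markers of brain cells, with oligodendrocyte markers summing to 32.1, 1171 and 207 CPM in mice 1, 2 and 4, and neuron and astrocyte markers to 93.0, 966 and 366 CPM. Of 7 markers each, 2 and 3 passed as higher than in kidney tumors. Scd2, the desaturase most used in brain, was 191, 262 and 142 CPM in the same order. The tumor of mouse 1, with the least brain signal, had the highest level of 13 of the 18 mevalonate and sterol enzymes and of 31.6% of all genes, among them Sqle at 239 CPM against 91.6 and 67.6 CPM. It also had the highest proliferation marker sum, 1955 CPM against 422 and 579.

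Brain and retro-orbital tumors, both outside the kidney, were compared with each other. Of the members 3 passed, each higher in brain tumors, while 1.73% of 21037 genes were called (0.395% higher and 1.34% lower). Scd1 was 489, 241 and 585 CPM in brain tumors and 68.6, 45.6, 121 and 49.1 CPM in retro-orbital tumors, a log2 fold change of 2.65 ± 0.44 (SE, adjusted p = 0.0389). Acat2 was 66.7, 37.99 and 34.1 CPM against 8.45, 7.04, 14.6 and 9.81 CPM, at 2.25 ± 0.36 (SE, adjusted p = 0.035), and Hsd17b7 was higher by 1.86 ± 0.34 (SE, adjusted p = 0.0497). Sqle, at 1.87 ± 0.49, missed the threshold (adjusted p = 0.0955). In all brain tumors 10 members were higher than in all retro-orbital tumors, against 7.19% of all genes, and 1, Abcg1, was lower, against 11.3%. No member passed without fusion mouse 2, 3 or 6, where edgeR called 0, 11 and 10 genes in all (0.0532% and 0.0482% for the latter pair), and 7 passed without fusion mouse 4, against 4.79% of genes. DESeq2 and the joint fit called 9 each, with 14.6% and 15.1% of all genes. Oligodendrocyte markers had 7 of 7 above 0 in this comparison, with a median of 5.86. Neuron and astrocyte markers also had 7 of 7 above 0, with a median of 5.27. None was called in either list, and their part was not tested.

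Fetal kidneys with the fusion were compared with control fetal kidneys to see its effect during development. No member passed edgeR's test, with 3 at an unadjusted p under 0.05 (20.3% of all genes were), and 2.67% of 22690 genes were called (2.40% higher and 0.269% lower). DESeq2 called 1 member, Abca1, as higher, and 12.0% of all genes. Insig1 was 68.6, 183, 33.3, 30.9 and 155 CPM in the 5 dysmorphic kidneys and 23.6, 144 and 203 CPM in the 3 controls, and both groups spanned a wide range. Its log2 fold change was -0.44 ± 0.79 (SE, adjusted p = 0.801). Insig2 was 27.1, 27.7, 27.5, 18.01 and 18.2 CPM against 21.3, 21.2 and 14.1 CPM, at 0.28 ± 0.23 (SE, adjusted p = 0.54). Acaca was 252, 274, 195, 233 and 233 CPM against 187, 187 and 250.4 CPM, at 0.14 ± 0.15 (SE, adjusted p = 0.645). Abca1 was the one member whose groups did not overlap, at 128, 97.7, 114, 123 and 102 CPM against 81.6, 65.7 and 48.8 CPM, with a change of 0.74 ± 0.18 (SE, adjusted p = 0.0707), and groups without overlap made up 14.6% of all genes, 10.6% higher and 3.93% lower. Macrophage markers were also wholly apart in sum, at 282 to 536 CPM in dysmorphic and 147 to 184 CPM in control kidneys, with 7 of 7 above 0 in log2 fold change and 2 called, and their part in the Abca1 value was not tested.

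A pair of fetuses stood above the rest. Control fetus 3 had the highest level of 29 of 32 members among the 3 controls and of 26 among all 8 fetuses, as for 38.9% and 17.3% of all genes tested, with a median of 1.77 times the higher of the other controls. Dysmorphic fetus 5 was the highest of the 5 dysmorphic kidneys for 25 members and for 25.1% of all genes. Lss, the lanosterol synthase, shows this with 14.0, 27.0 and 72.6 CPM in control fetuses 1 to 3 and 14.3, 27.1, 13.3, 20.1 and 50.1 CPM in dysmorphic fetuses 1 to 5. Both fetuses, with dysmorphic fetus 4, carry a different title prefix from the other 5. By Y-linked transcripts these 3 were all female. Of the other 5, control fetus 2 was female and the rest were male, so prefix and sex can hardly be told apart. Among those 5, dysmorphic means were below control means for 17 of 32 members, with a median log2 ratio of -0.02. Among the 3, dysmorphic means were below control fetus 3 for 29, with a median of -0.72. Control fetus 3 is also the control whose Pax2 and Pax8 sum was low and whose proximal tubule sum was not. Without it, no member passed. Dysmorphic samples held more skeletal muscle transcripts, with 5 of 6 markers higher and sums of 2552 to 5861 against 1080.0 to 1293 CPM. The part of these differences was not tested.

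**Figure D4:**
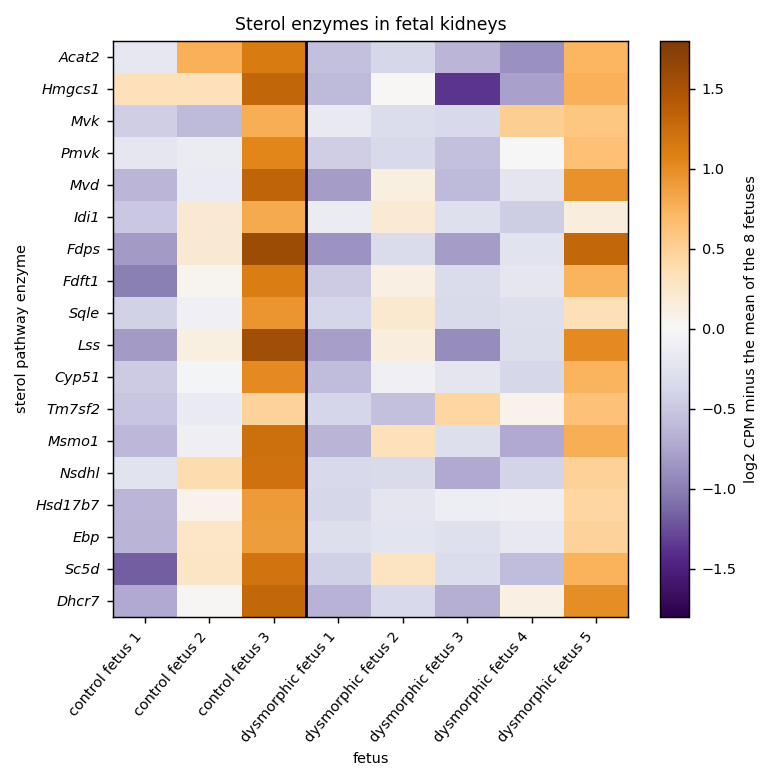
Level of the 18 mevalonate and sterol enzymes (rows) in the 8 fetal kidneys (columns), as log2 CPM minus the mean of the 8 fetuses (color). The column of control fetus 3, followed by that of dysmorphic fetus 5, is the highest for most enzymes, and the line separates control from dysmorphic fetuses.

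The fusion's effect in adult kidney tumors was then tested against its effect in fetal kidneys. Of the members 5 differed, each with the higher log2 fold change in the adult model, and 8.94% of 24444 genes were called (6.87% in this direction). The difference of log2 fold changes was 4.57 ± 0.95 (SE, adjusted p = 0.00836) for Insig1, 2.55 ± 0.58 (SE, adjusted p = 0.0137) for Acaca, 1.98 ± 0.41 (SE, adjusted p = 0.00789) for Insig2, 1.89 ± 0.49 (SE, adjusted p = 0.0258) for Sqle and 3.12 ± 0.93 (SE, adjusted p = 0.0488) for Fdps. The median of this difference was 0.16 over all genes and 0.65 over the members, and with RLE factors the median of all genes was 0.07 and 4 members passed, with 8.28% of all genes called. Insig1, Insig2 and Acaca passed in all 22 alternatives. In fetal kidneys alone Insig1, Sqle and Fdps had values below 0 (-0.44 ± 0.79, -0.38 ± 0.32 and -0.64 ± 0.66), none past the threshold. The count was 3 without fusion mouse 3 (6.58% of all genes called), without control mouse 1, 2 or 3 (5.33%, 3.79% and 4.08%), without dysmorphic fetus 4 (6.05%) or without control fetus 3 (4.72%). Proliferation markers, high in both fetal groups (2323 to 2542 CPM in controls and 2214 to 2706 CPM in dysmorphic kidneys), also differed in this test, 6 of 6. The models differ in fetal stage, Cre and tissue as well as in tumor formation, which cannot be told apart here.

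**Figure D5:**
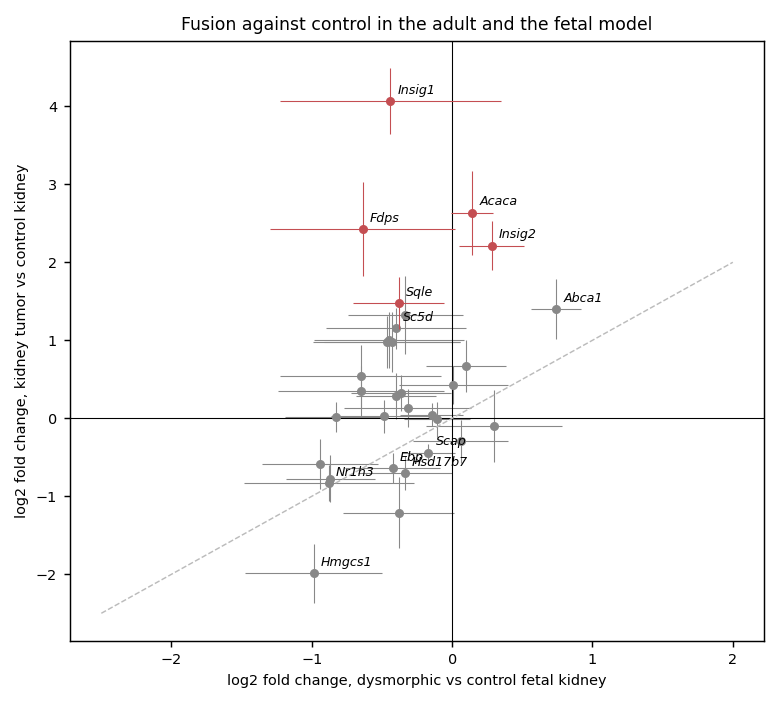
Log2 fold change of the 32 members with the fusion in adult kidney tumors (vertical axis) against that in fetal kidneys (horizontal axis), with SE bars and a dashed line of equal change. The 5 members in red, Insig1, Acaca, Fdps, Insig2 and Sqle, passed the test of the difference and lie above the line.

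Levels also varied among the kidney tumors. Over the 5 mice with 2 kidney tumor libraries, the ratio of the higher to the lower library of a mouse had a median of 1.35 over members. In all 15 members differed by more than 2 times between the libraries of at least 1 mouse, and the largest ratio, 8.59, was that of Fdps. Summed per mouse, tumors of mice 4 and 5 had the highest Acat2 and Stard4 and the lowest Abca1 and Acaca of the 6 mice, for Acaca 472 and 294 CPM. The 2 libraries of mouse 4 were unlike, with 185 and 702 CPM of Acaca. Acat2 was 73.7 and 32.4, Stard4 72.6 and 36.3, and Abca1 84.0 and 177 CPM in them, without TMM factors. Mice 4 and 5 also had the highest proximal tubule sums, whose part was not tested.

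Ordered per length, the members changed places between normal kidney and tumor. In control kidney Scd1 was highest at 113 CPM per kilobase, followed by Cyp51 at 44.9 and Nsdhl at 23.5. In kidney tumors Insig1 was first at 184, followed by Scd1 at 104 and Acaca at 51.2. In brain tumors Insig1 and Insig2 led at 190.1 and 114. Scd2 led in both fetal groups, at 99.6 in controls and 65.7 in dysmorphic kidneys. Fdps was the lowest member in control kidney at 0.221 and Hmgcs1 in kidney tumors at 0.57. Several neighbours in these orders, such as Acaca and Insig2 (49.8) in kidney tumors, lay within the spread between mice.

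The other genes of the pathway, 52 in 5 lists, were examined as well. In kidney tumors against control kidneys 6 rose and 12 fell, against 12.5% of all genes higher and 6.51% lower. Of 16 sterol storage, uptake and export genes, Soat1, which esterifies cholesterol for storage, rose by 3.19 ± 0.40 (SE, adjusted p = 0.00123), Pltp, the phospholipid transfer protein, by 2.75 ± 0.35 (SE, adjusted p = 0.00145) and Npc2, which carries cholesterol in lysosomes, by 1.36 ± 0.36 (SE, adjusted p = 0.0297), while 3 fell. Macrophage markers, with 4 of 7 called higher and a median of 1.64, and adipocyte markers, with 8 of 8 above 0, none called and a median of 3.15, moved with these rises, and their part was not tested. Of 16 fatty acid and glyceride genes, Plin2, a lipid droplet coat protein, rose by 1.41 ± 0.40 (SE, adjusted p = 0.0371) and Dgat1, which makes triglycerides, by 1.06 ± 0.32 (SE, adjusted p = 0.0467), and Elovl6, a fatty acid elongase, fell by 1.35 ± 0.39 (SE, adjusted p = 0.0415) along with 3 others. Of 6 SREBP processing genes, Erlin1, an endoplasmic reticulum protein that binds cholesterol, fell by 1.05 ± 0.20 (SE, adjusted p = 0.00841), with 1 higher and 3 lower in all. Of 5 redox and scaffold genes, Por, the reductase that feeds electrons to Cyp51 and Sqle, fell by 0.70 ± 0.12 (SE, adjusted p = 0.00633), and of 9 genes on isoprenoid branches Nus1, of dolichol synthesis, fell by 0.70 ± 0.19 (SE, adjusted p = 0.0352). The Soat1 and Pltp effects also differed between the adult and fetal models, by 3.66 ± 0.56 (SE, adjusted p = 0.000788) and 2.09 ± 0.43 (SE, adjusted p = 0.00733), the only 2 of the 52 to do so.

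The same 52 genes were counted in the other comparisons. Against non-transformed kidney 5 were higher in tumors and 8 lower (12.1% and 5.02% of all genes), with Soat1 at 2.82 ± 0.34 (SE, adjusted p = 0.000629). In retro-orbital against kidney tumors 1 rose and 16 fell of 51 tested, against 8.26% of all genes higher and 9.45% lower. Of the 16 fatty acid and glyceride genes 8 fell, including Dgat2, which makes triglycerides, at -4.23 ± 0.69 (SE, adjusted p = 0.0038), Fads2, a fatty acid desaturase, at -2.38 ± 0.28 (SE, adjusted p = 0.00139) and Me1, the malic enzyme that supplies NADPH, at -1.84 ± 0.24 (SE, adjusted p = 0.00175). The median of that list was -1.18 on the log2 scale. Adipocyte markers had 7 of 7 below 0 with a median of -6.59 and proximal tubule markers a median of -3.53, none called in either list, and their part was not tested. Among the 52 genes Pltp was the gene that rose, by 1.74 ± 0.26 (SE, adjusted p = 0.00287). Por fell by 1.41 ± 0.12 and Cyb5b, a cytochrome b5, fell by 1.43 ± 0.18. In brain against kidney tumors none rose and 8 fell, among them Acacb, the second acetyl-CoA carboxylase, at -4.39 ± 0.58 (SE, adjusted p = 0.0069), against 4.20% of all genes lower. Adipocyte markers had 8 of 8 below 0 in brain tumors, 1 of them called, with sums of 16.2 to 25.6 CPM against 137 to 1682 CPM in kidney tumors, and their part was not tested. None of the 52 was called between non-transformed and control kidney, between brain and retro-orbital tumors or in fetal kidneys.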

How the data were processed

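RNA was measured in 36 libraries of 17 animals, in 7 groups, by stranded total RNA sequencing without removal of ribosomal RNA. The authors deposited raw counts per gene for the Sglt2-Cre and the Pax8-Cre libraries. Per the submitters' processing notes, the tools include STAR 2.5.2a and Bowtie2 and the builds GRCm38 and mm10, while the counter is not given in the sources used here. The members and gene lists were chosen with earlier results of these data known. All members and the genes called in the other lists, up to 3 a list, could be named. Of the counts from 1 to 20, 79.0% to 84.3% were even in every library, so halved counts were also tested. Reads are not independent molecules, so p-values describe the spread between animals.

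Ensembl IDs were matched to GENCODE M21 (GRCm38), with symbols for 53274 of 53379 genes. Counts were summed per animal and group and fitted in each comparison with edgeR 4.0.16 (TMM factors, filterByExpr, quasi-likelihood F-test, R 4.3.3), with Benjamini-Hochberg adjusted p under 0.05 over all genes tested. SE values were derived from each fold change and its F statistic (absolute log2 value over root F). CPM used TMM factors over all groups. The code was tested on simulated data with 4-fold changes in 200 genes. Of these, edgeR recovered 34.5% for kidney tumor against control, 42.5% for retro-orbital against kidney tumor and 33.5% for the fetal comparison. DESeq2 recovered 69.5%, 71.5% and 64%, with 80, 70 and 105 false calls against 7, 1 and 1 in edgeR. A member that did not pass edgeR's test may thus still differ. Alternatives were RLE and upper quartile factors, no filter, DESeq2 1.42.0, halved counts, a joint fit, sex as a covariate, mouse or title prefix as a block, and leaving out each animal. Chosen after seeing the data were the unblocked fit on paired animals and the fit without fusion mice 4 and 5. Tissues of the same mouse pair the samples. Deviations of same-mouse tissues correlated across genes at 0.016 to 0.171 for kidney tumor and non-transformed kidney, 0.137 to 0.259 for retro-orbital and kidney tumor, and -0.046 to -0.018 for brain and kidney tumor. Tables and plots used Python 3.11.15, pandas 2.3.3 and matplotlib 3.10.9.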

Additional observations from a re-analysis of the deposited data

Results flagged for a closer look

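In 128 sets of 4 to 6 samples (a member in a group), 12 had a highest or lowest sample far from the rest by Dixon's criterion, applied to CPM without logs. A rate of 1 in 20 would give 6.4. Members of a group share the same samples, so the sets are not independent and 6.4 is no firm reference. Of the 12, 7 were dysmorphic fetus 5, which was highest for Acat2 (56.4 CPM), Fdps (5.28), Cyp51 (104), Nsdhl (43.2), Hsd17b7 (15.7), Ebp (13.2) and Scd2 (791 CPM, next 295). Mouse 3 was highest in non-transformed kidney for Sqle (226 CPM, next 139) and Insig2 (57.9 CPM, next 41.9). In retro-orbital tumors mouse 6 had the highest Insig2 (265 CPM). In kidney tumors mouse 5 had the highest Pmvk (20.7 CPM) and mouse 2 the highest Scd1 (1283 CPM).

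The fusion effect of 5 members was unequal in the adult and the fetal model by edgeR's interaction test. The differences of log2 fold changes, adult minus fetal, were 4.57 for Insig1, 3.12 for Fdps, 2.55 for Acaca, 1.98 for Insig2 and 1.89 for Sqle.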

How the results depend on the processing

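No called log2 fold change of a member reversed under any alternative. Of 47 calls of a member in a comparison, 14 held in every alternative and 34 in every alternative that kept all animals and used no block. A number of members called was taken as moved if it changed by more than 1.5 times or to or from 0. Smaller changes are not all listed. RLE and upper quartile factors, for instance, gave 10 and 11 for kidney tumor against non-transformed kidney. DESeq2 added Mvd, Fasn and Dhcr7 for kidney tumor against control, and Cyp51, Abca1 and Ebp against non-transformed kidney. The numbers that moved, with some others, were as follows. Against the 9 called for kidney tumor against non-transformed kidney, mouse as a replicate block gave 2, as did no block on the same animals. For brain against kidney tumor, with 3 called, DESeq2 gave 7, the joint fit 6, and both fits on paired animals, with and without the block, 0. For brain against retro-orbital tumor, with 3, DESeq2 and the joint fit gave 9 each. DESeq2 gave 3 for non-transformed against control kidney and 1 for the fetal comparison, with 0 in edgeR for both. Without fusion mice 4 and 5, the count for kidney tumor against control was 19. With mouse as a block, 10 passed for retro-orbital against kidney tumor, and the title prefix as a block left the fetal count at 0. Leaving out each animal gave 2 to 15 members for kidney tumor against control, 3 to 11 against non-transformed kidney, 8 to 16 for retro-orbital against kidney tumor, 0 to 3 for brain against kidney tumor, 0 to 7 for brain against retro-orbital tumor and 3 to 6 for the difference between models. At the upper ends of 15, 11, 16 and 6, the share of all genes called was 25.1%, 17.0%, 19.5% and 6.21%. Sex as a covariate gave 15 for kidney tumor against control, 11 higher, with 25.9% of all genes called. The causes were not tested.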
